A study of Mus musculus with 360 samples.

Results

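The genes described here encode 10 proteins that fold, modify, trim and crosslink fibrillar collagen, namely P4ha1, P4ha2, Plod1, Plod2, Plod3, Crtap, Serpinh1, Fkbp10, Pcolce and Lox. They were chosen by name from what their proteins do, by a rule that uses no measured value but with earlier results of these data known, and they are 10 of the 24015 genes counted. The 10 are called enzymes below for short, although Serpinh1 encodes a chaperone, Crtap a helper subunit and Pcolce an enhancer of a protease. Reads per gene were counted in individual CD51+;CD200+ skeletal stem/progenitor cells from wild-type CD-1 mice at postnatal day 3. The cells had been sorted as positive for CD51 and CD200 and negative for 6C3, CD105, Tie2, the 2 Thy1 forms (Thy1.1, Thy1.2) and the blood markers CD45 and Ter119. They came from 3 sutures of the skull, the coronal (COR), the posterior frontal (PF) and the sagittal (SAG), and from the growth plate (GP) of the tibia, and they carried no transgene, mutation or treatment. The PF suture closes early in life, the SAG and COR sutures do not, and the study asked how these cells differ between them. Animals were pooled and no cell was tied to an animal, so each tissue was 1 sample spread over 2 plates of wells. No test could be made between tissues, and the 2 plates gave the only spread within one.

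A fibrillar collagen chain is hydroxylated on proline and lysine in the endoplasmic reticulum, folds there into a triple helix with the help of chaperones, is secreted, loses its propeptides outside the cell, and is then crosslinked to its neighbours. Osteogenic cells make mostly type I collagen, a trimer of Col1a1 and Col1a2 chains, and chondrocytes make mostly type II collagen, a trimer of Col2a1 chains. Defects of Crtap, Serpinh1, Fkbp10, Plod2 or the genes of type I collagen cause brittle bones in people.

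Of 360 cells, 325 passed the filter of at least 500 genes with a read and 10000 reads, and these were 87 PF, 86 SAG, 74 COR and 78 GP cells. Reads other than those of the ribosomal RNA gene Rn45s had a median of 276612 per passing cell (range 3628 to 938318). Levels are given as CPM, the reads of a gene per 1000000 reads of the plate or tissue with Rn45s left out of the total. SAG plate 2 stood apart. Rn45s took 86.8% of its reads against 20.2% to 30.96% on the other 7 plates, and its cells had a median of 875 genes with a read against 2112 to 3867 elsewhere. Levels of the enzymes in SAG are therefore given by plate. A read of Itgav (CD51) or Cd200, the sort markers, was present in 62.1% of PF, 82.4% of COR and 69.2% of GP cells. In SAG it was present in 40.7% of cells, made up of 80% on plate 1 and 19.6% on plate 2. Chondrocyte markers were plentiful in SAG, where all 10 genes of the list had reads and their sum was 20969 CPM on plate 1 and 14114 CPM on plate 2, against 252 to 433 CPM on the plates of PF and COR. In GP the sum was 518 CPM on plate 1 and 4678 CPM on plate 2. The sum of 8 osteoblast markers ran from 1589 CPM on GP plate 1 and 1627 CPM on SAG plate 2 to 94257 CPM on COR plate 1. The part of these markers in the differences below was not tested. With no molecular identifiers in the protocol, all intervals cover counting error only, and in summed values fewer cells with a transcript and less RNA of it per cell cannot be told apart.

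At least 1 of the 10 enzymes was read in every passing cell of PF, COR and GP and in 83 of 86 cells of SAG. The median cell had reads of 7 of the 10 in PF, 8 in COR, 7 in GP, with 7 on SAG plate 1 and 3 on SAG plate 2, and all 10 were read in 10 cells of PF, 14 of COR, 7 of GP and 1 of SAG. Summed over the 10 genes, the level was 6161 CPM in PF (6933 on plate 1 and 5974 on plate 2), 5342 in COR (6155 and 5250), 4760 in GP (4945 and 4721) and 5121 in SAG (3694 and 6070). The widest log2 ratio between 2 tissues was 0.37 (PF over GP), and the ratio of PF over SAG was 0.27. The even sum in SAG rests on SAG plate 2, since without it the ratio of PF over SAG was 0.74 and that of SAG over GP turned from 0.11 to -0.37. By reads, the first of the enzymes was Pcolce on 7 of the 8 plates and Crtap on SAG plate 2. Pcolce gave 42.02% of all enzyme reads in PF, 34.3% in COR and 32.5% in GP and was first in each. On SAG plate 1 Pcolce was first as well at 25.1%, before Fkbp10 at 21.4% and Crtap at 12.3%, whereas on SAG plate 2 Crtap gave 44.1%, Plod1 21.2% and Pcolce 7.99%. Set per kilobase of exon, which allows levels of different genes to be compared, the order in PF was Pcolce (677 CPM per kb), Crtap (332), Fkbp10 (281), Lox (220), P4ha1 (106), Serpinh1 (53.97), Plod1 (29.3), P4ha2 (29.2), Plod2 (21.3) and Plod3 (19.7). The hydroxylases of lysine were the lowest of the set in PF on this scale, with P4ha2 among them.

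**Figure D1:**
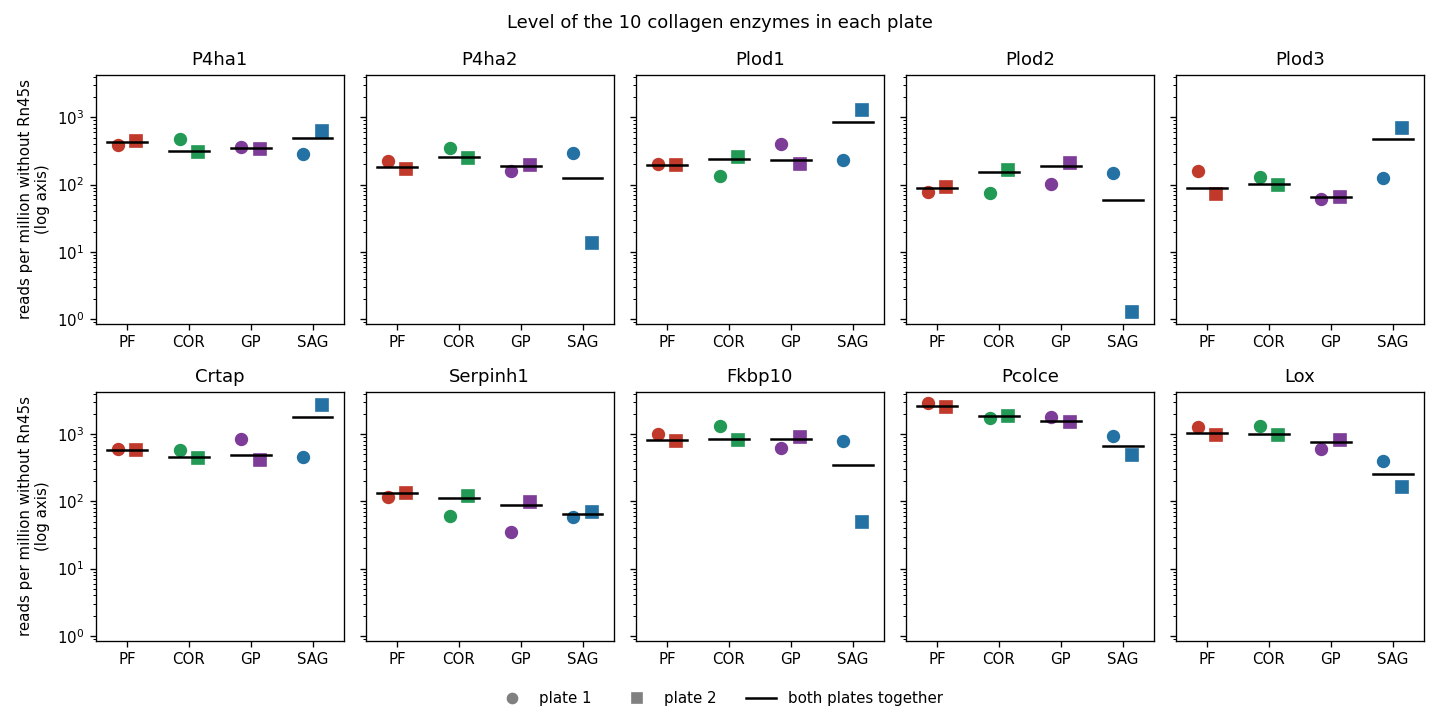
Level of each of the 10 enzymes (vertical log axis, CPM without Rn45s) on the 2 plates of PF, COR, GP and SAG; circles are plate 1, squares plate 2, and the line is the tissue with both plates summed. The plates of PF, COR and GP lie close together for most genes, while SAG plate 2 lies above SAG plate 1 for Plod1, Plod3 and Crtap and far below it for P4ha2, Plod2 and Fkbp10.

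Differences between tissues were described with 1 rule. A gene counted as higher or lower where the log2 ratio of CPM + 1 was at least 1 in size (2-fold) and the 4 ratios formed by setting each plate of one tissue over each of the other's were all above or all below 0. Between PF and COR 0 of the 10 enzymes met it in either direction, where 5.43% of the 9514 genes compared were higher in PF and 6.36% lower. Between COR and GP again 0 enzymes met it, where 6.33% of genes were higher in COR and 7.09% lower. Between PF and GP 0 enzymes were higher in PF, where 7.67% of genes were, and 1 of 10 was lower, Plod2, where 8.73% of genes were. That is 1 enzyme in the 3 pairs among PF, COR and GP. The 4 plate ratios had one sign, at any size, for 2 enzymes in PF over COR, 3 in COR over GP and 6 in PF over GP, where 32.4%, 36.98% and 36.7% of all genes compared had one sign.

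More enzymes met the rule in the pairs with SAG, and so did more genes of any kind. Serpinh1, Pcolce and Lox were higher in PF than in SAG (3 of 10, where 16.9% of genes were), and Plod1 was lower (1 of 10, where 13.2% were). Fkbp10, Pcolce and Lox were higher in COR than in SAG (3 of 10, where 18.9% of genes were), and 0 enzymes were lower, where 13.5% of genes were. Plod3 was higher in SAG than in GP (1 of 10, where 13.3% of genes were), and Pcolce and Lox were lower (2 of 10, where 18.3% were). The median log2 ratio of the 10 enzymes was 0.56 for PF over SAG beside 0.29 over all genes, 0.91 for COR over SAG beside 0.29, and -0.51 for SAG over GP beside -0.23. Pcolce and Lox were the only members on the same side of the rule in all 3 pairs with SAG, and these pairs share the SAG cells. Over the 3 pairs 10 ratios met the rule. With SAG plate 2 left out 4 did, those of Serpinh1 (log2 1.18), Pcolce (1.48) and Lox (1.39) for PF over SAG and of Lox (1.36) for COR over SAG. With SAG plate 1 left out 24 did. Both counts rest on fewer plate ratios per pair than the 4 of the rule, so the condition of one sign was easier to meet. With TMM scaling the ratio of PF over SAG was 0.77 for Serpinh1, short of 2-fold, and the 4 plate ratios of Plod1 no longer had one sign. With Rn45s counted in the totals the median gene moved to 1.99 for PF over SAG, and Plod1 was at -0.23.

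**Figure D2:**
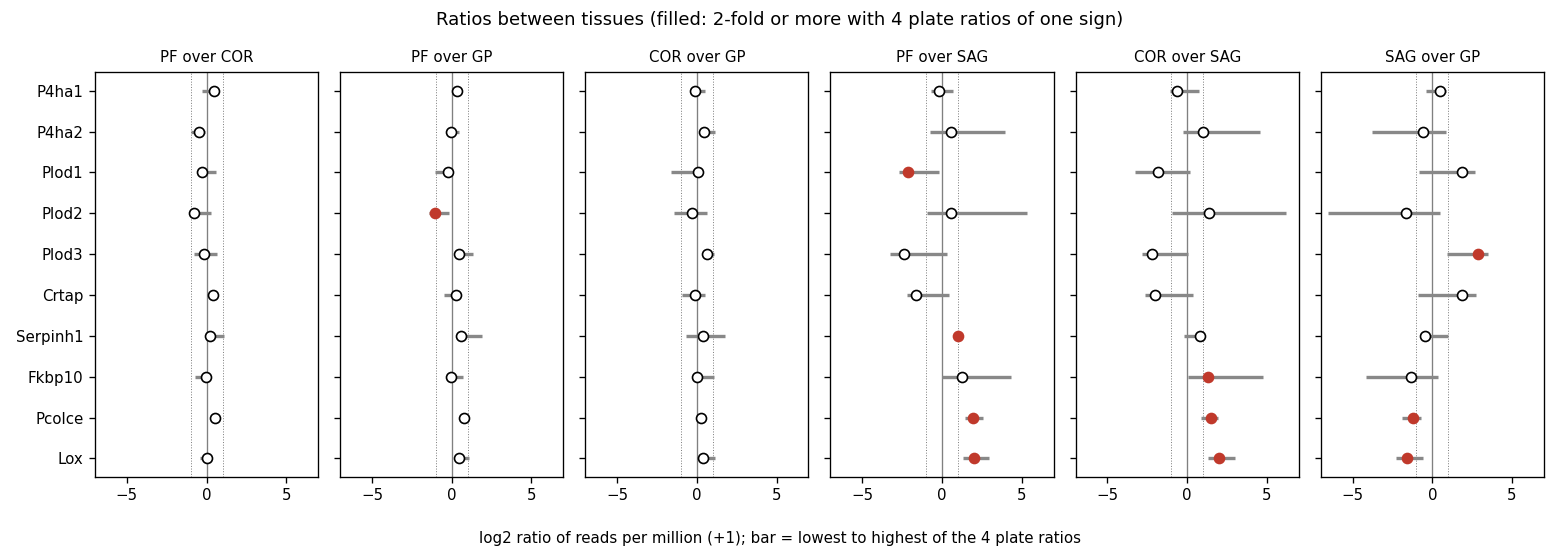
Log2 ratio of CPM + 1 for each enzyme (vertical axis) in the 6 pairs of tissues; points are the tissues with both plates summed, grey bars run from the lowest to the highest of the 4 plate ratios, dotted lines mark 2-fold, and filled points met the rule of 2-fold with 4 plate ratios of one sign. Pcolce and Lox are filled in each pair with SAG, and the bars of P4ha2, Plod2 and Fkbp10 are long wherever SAG is involved.

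The 2 plates of SAG were themselves far apart. Between them 8 of the 10 enzymes differed at least 2-fold, 4 higher on plate 2 and 4 lower, but 80.1% of all 9555 genes did so too. Within PF 1 of 10 enzymes (Plod3) passed 2-fold between plates where 42.5% of genes did, within COR 1 of 10 (Plod2) where 32.7% did, and within GP 3 of 10 where 37.6% did. The median size of the plate difference in PF was 0.24 on the log2 scale for the enzymes and 0.82 for all genes. It was 0.58 and 0.62 in COR and 0.50 and 0.72 in GP. The genes compared had at least 10 CPM on 1 of the plates and were not matched to the enzymes for level. The part of level in these counts and medians was not tested. In SAG the same medians were 2.49 and 2.79, so in SAG, as in COR, the enzymes moved between plates about as much as other genes.

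The prolyl 4-hydroxylases make the 4-hydroxyproline that keeps the triple helix stable at body temperature. P4ha1 (ENSMUSG00000019916.8, mm9 chr10:58786044-58836052, + strand) encodes the main catalytic subunit. Its level was 388 CPM on PF plate 1 and 446 on plate 2, 478 and 300.3 in COR, 365 and 339 in GP, and 279.9 and 629 in SAG. The lowest and the highest of the 8 plates were both from SAG, so the spread within SAG enclosed the other 3 tissues. P4ha2 (ENSMUSG00000018906.8, chr11:53913597-53945167, + strand), the second catalytic subunit, was at 223 and 172 CPM in PF, 345 and 244 in COR, 159 and 195 in GP, with 293 and 13.4 in SAG. On SAG plate 2 it had a read in 3 of 56 cells, and 90.6% of its reads there came from 1 cell. Many cells read only one of the pair. In PF 27 cells had P4ha1 alone, 7 had P4ha2 alone, 26 had both and 27 had neither. In COR 40 of 74 cells had both, whereas on SAG plate 2 0 of 56 did. Per kilobase of exon P4ha1 stood above P4ha2 in every tissue, at 77.4 against 40.7 CPM per kb in COR. With both plates summed it was 119 against 20.1 in SAG. By plate the values in SAG were 68.04 against 47.03 on plate 1 and 152.8 against 2.16 on plate 2. The wide gap in SAG therefore rests on SAG plate 2.

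Crtap (ENSMUSG00000032431.6, chr9:114284252-114299793, - strand) is the helper subunit of the complex that 3-hydroxylates proline in the type I chain, together with the prolyl 3-hydroxylase P3h1 and the cyclophilin Ppib. Its level was 608 and 583 CPM in PF, 583 and 436 in COR, 833 and 407 in GP, with 453 and 2675 in SAG. SAG plate 1 lay inside the range of the other tissues and SAG plate 2 lay far above the highest of them. Crtap was the enzyme most often read on SAG plate 2, in 83.9% of its 56 cells, and it was read in 83.9% of PF, 85.1% of COR and 82.1% of GP cells. Its partner P3h1, listed as Lepre1, did not follow it on that plate, with 612 CPM on SAG plate 1 and 162 on plate 2, nor did Ppib, with 134 and 37.2 CPM. Of the exon bases of Ppib 54.2% also lie in Snx22, so its counts are uncertain.

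The sequence around the start of Crtap is shown with that of Pcolce, because the rho of this pair over cells was at least 0.3 in each of the 5 sets described below. They are 300 bases each, from 250 before to 50 after the start given by RefSeq on GRCm38.p6, and read 5′ to 3′ on the strand of the gene. Windows were read for 7 of the 10 enzymes, and there was no entry for Plod2 and Fkbp10. Capitals mark the letters of 4 motifs on either strand, which are CCAAT, then TATAAA, then GGGCGG and last CCACG.
Crtap, chr9:114390663-114390962, - strand: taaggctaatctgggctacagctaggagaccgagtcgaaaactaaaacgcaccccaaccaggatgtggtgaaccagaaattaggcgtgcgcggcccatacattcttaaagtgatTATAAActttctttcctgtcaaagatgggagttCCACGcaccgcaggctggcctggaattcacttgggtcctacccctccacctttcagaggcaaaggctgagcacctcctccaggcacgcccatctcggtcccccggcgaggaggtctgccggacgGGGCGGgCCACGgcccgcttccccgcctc
Pcolce, chr5:137611355-137611654, - strand: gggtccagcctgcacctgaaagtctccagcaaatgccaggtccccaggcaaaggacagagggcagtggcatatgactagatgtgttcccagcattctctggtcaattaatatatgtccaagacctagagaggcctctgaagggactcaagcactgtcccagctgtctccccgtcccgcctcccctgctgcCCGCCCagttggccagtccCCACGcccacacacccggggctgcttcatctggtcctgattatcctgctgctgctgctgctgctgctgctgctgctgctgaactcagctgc
Both windows held GGGCGG and CCACG, found in 35.7% and 32.8% of 32851 windows of this length, the Crtap window held TATAAA 136 bases before the start, found in 13.6% of windows, and neither held CCAAT, found in 37.4%. These are matches of letters and nothing was measured on them here.

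The lysyl hydroxylases make the hydroxylysine that is later glycosylated or crosslinked. Plod1 and Plod3 act mainly on the helix, and Plod2 on the telopeptides, the short ends at which stable bone-type crosslinks form. Plod1 (ENSMUSG00000019055.8, chr4:147283862-147310876, - strand) was at 203 and 197 CPM in PF, 132.5 and 255.5 in COR, 402 and 199 in GP, with 228 and 1285 in SAG. Both SAG plates were above both PF plates, and SAG plate 1 exceeded the higher PF plate by 0.17 on the log2 scale, so the 2-fold difference in that pair rests on SAG plate 2. Plod3 (ENSMUSG00000004846.4, chr5:137462889-137472518, + strand), which also adds sugars to hydroxylysine, was at 157 and 72.5 CPM in PF, 128 and 97.6 in COR, 61.3 and 65.5 in GP, with 124 and 701 in SAG. GP was the lowest tissue for Plod3, with both its plates below the other 6. Of its exon bases 11.9% lie in Znhit1 or Mir702, so some of its reads may belong to them.

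Plod2 (ENSMUSG00000032374.8, chr9:92437061-92503266, + strand) had a pattern of its own. It was at 76.4 and 91.9 CPM in PF, 75.97 and 163 in COR, 103 and 207 in GP, with 146 and 1.26 in SAG. Both GP plates were above both PF plates, with 189 CPM in GP and 88.8 in PF (log2 ratio of PF over GP -1.08, plate ratios -1.42 to -0.16), and this was the single call among PF, COR and GP. On SAG plate 2 it was read in 3 of 56 cells. Cells often lacked 1 or more of the 3 genes. All 3 were read in 16 of 87 cells of PF, 21 of 74 of COR, 25 of 78 of GP, 11 of 30 of SAG plate 1 and 1 of 56 of SAG plate 2, and none in 20, 3, 5, 3 and 13 cells.

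Serpinh1 (ENSMUSG00000070436.5, chr7:106493885-106501740, - strand) encodes HSP47, the chaperone that binds the finished triple helix and escorts it from the endoplasmic reticulum. It was at 117 and 135 CPM in PF, 61.5 and 119 in COR, 34.8 and 98.98 in GP, with 57.6 and 69.1 in SAG. PF was higher than SAG by 2.02-fold (log2 1.02, plate ratios 0.75 to 1.21), the narrowest spread of plate ratios among the calls with SAG. It was read in 93.1% of PF (95% exact interval 85.6% to 97.4%), 94.6% of COR, 88.5% of GP and 38.4% of SAG cells (28.1% to 49.5%), the last made up of 63.3% on plate 1 and 14 of 56 cells on plate 2. In the 70 PF, 71 COR, 67 GP and 80 SAG cells deep enough to be thinned to 100000 reads other than Rn45s, the shares were 95.7% in PF, 92.96% in COR, 82.1% in GP, with 12 of 25 cells on SAG plate 1 and 12 of 55 on SAG plate 2. So wide a detection came with few reads. Of the 89 genes read in at least as many PF cells, 6 had a lower CPM, and their median was 434 CPM against 131 for Serpinh1. The same comparison gave 12.3% of such genes below Serpinh1 in COR, 7.46% in GP and 2.56% in SAG. Reads and not reads per kilobase are set side by side here, since the number of reads is what decides detection. None of its exon bases is shared with another gene of the annotation.

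Fkbp10 (ENSMUSG00000001555.4, chr11:100277011-100286138, + strand) encodes FKBP65, a prolyl isomerase that binds procollagen and is needed for the work of Plod2 on the telopeptides. It was at 994 and 785 CPM in PF, 1316 and 808 in COR, 617 and 903 in GP, with 791 and 48.6 in SAG. SAG plate 1 was within the range of the other tissues and SAG plate 2 was below all of them. COR exceeded SAG by 2.49-fold, but the plate ratios ran from 0.03 to 4.73 on the log2 scale, so COR plate 2 and SAG plate 1 were level with each other. It was read in 86.7% of the 30 cells of SAG plate 1 and in 16.1% of the 56 of plate 2. The gene lies head to head with Leprel4 (P3h4), another protein of the lysyl hydroxylation complex, with 877 bases between them on opposite strands. Over cells the rank correlation of the pair was 0.40 in COR, 0.35 in PF, 0.20 in GP and 0.00 on SAG plate 1, and higher than that of 99.3%, 94.9%, 66.7% and 44.8% of genes with Fkbp10. This pair was looked at after the positions had been seen.

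Pcolce (ENSMUSG00000029718.8, chr5:138046331-138055012, - strand) encodes the secreted enhancer of the protease that removes the C-propeptide, the step that lets fibrils form. It was at 2907 and 2512 CPM in PF, 1726 and 1846 in COR, 1779 and 1501 in GP, with 926 and 485 in SAG. The PF plates were the highest 2 of the 8 and the SAG plates the lowest 2, with no overlap between either and the rest. PF exceeded SAG by 3.91-fold (log2 1.97, plate ratios 1.44 to 2.58), COR exceeded SAG by 2.77-fold (1.47, 0.90 to 1.93), and SAG was below GP by 2.34-fold (-1.23, -1.87 to -0.70). PF was above COR by 1.41-fold on all 4 plate ratios (0.44 to 0.75), which is short of 2-fold. It was read in 91.95% of PF, 98.6% of COR, 82.1% of GP cells, and in 83.3% of the cells of SAG plate 1 and 48.2% of those of plate 2, so on SAG plate 1 it was read about as widely as in GP.

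Lox (ENSMUSG00000024529.6, chromosome 18) encodes lysyl oxidase, which oxidises lysine and hydroxylysine in the fibril to start the crosslinks. It was at 1260.3 and 979.5 CPM in PF, 1309 and 981 in COR, 591 and 806 in GP, with 394 and 164 in SAG. The 2 SAG plates were the lowest of the 8 and the 2 GP plates the next, so the 4 plates of PF and COR lay above all others. PF exceeded SAG by 4.03-fold (log2 2.01, plate ratios 1.31 to 2.94), COR exceeded SAG by 3.95-fold (1.98, 1.31 to 2.99), and SAG was below GP by 3.00-fold (-1.58, -2.29 to -0.58). The share of cells with a read was 77.01% in PF, 93.2% in COR, 75.6% in GP, with 25.6% in SAG (95% exact interval 16.8% to 36.1%), which was 33.3% on plate 1 and 21.4% on plate 2. After thinning Lox was read in 77.1% of PF, 91.5% of COR and 76.1% of GP cells and in 20 of 80 SAG cells.

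Col1a1, like Pcolce and Lox, was higher in PF and COR than in SAG and lower in SAG than in GP. Col1a1 was at 112520 and 75393 CPM in PF, 72989 and 62253 in COR, 49155 and 69707 in GP, with 29167 and 13152 in SAG, and Col2a1 was at 1.18 and 58.7 CPM in PF, 0.31 and 2.26 in COR, 53.4 and 2831 in GP, with 9413 and 7214 in SAG. Single cells carried much of the Col2a1, 63.1% of it on GP plate 2 and 48.3% on SAG plate 1, and without the top cell of each plate it was at 0 and 21.6 CPM in PF, 0 and 0.0353 in COR, 20.4 and 1085 in GP, with 5216 and 5699 in SAG. Each enzyme was therefore set against type I collagen, as reads per 1000 reads of Col1a1 plus Col1a2 in the same plate. This ratio does not depend on the library total. Reads of Col2a1 and of other collagens are not in it, so it is not a ratio to all substrate. Pcolce was at 16.3 and 19.4 per 1000 in PF, 14.2 and 17.7 in COR, 19.7 and 13.4 in GP, with 18.15 and 18.004 in SAG. Over the 8 plates it moved by 1.47-fold while its own level moved from 485 to 2907 CPM. Lox was at 7.05 and 7.58 per 1000 in PF, 10.8 and 9.38 in COR, 6.56 and 7.20 in GP, with 7.73 and 6.08 in SAG, a span of 1.78-fold.

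These 2 spans were among the narrowest of all genes. Of 10686 genes with at least 10 CPM in 1 tissue, 21 (0.197%) stayed within 2-fold over the 8 plates, and 2 of them are Col1a1 and Col1a2, which form the denominator. Pcolce was the third and Lox the seventh in this order. The genes were not matched for level. Pcolce ran from 485 to 2907 CPM and Lox from 164 to 1309 CPM over the plates, well above the minimum of 10 CPM. The part of level in the order was not tested. The other 8 enzymes spanned 6.64-fold (Serpinh1) to 61.4-fold (Plod2), and Fkbp10, P4ha1 and P4ha2 spanned 8.60, 10.7 and 11.5-fold. Crtap rested at 3.40 to 9.24 per 1000 on 7 plates and reached 99.3 on SAG plate 2, and Plod1 and Plod3 reached 47.7 and 26.02 there. With SAG plate 2 left out, Pcolce still spanned 1.47-fold and Lox 1.65-fold, 107 genes (1.00%) stayed within 2-fold, and Crtap, P4ha1, Fkbp10 and Serpinh1 spanned 2.53 to 2.95-fold. Without the cell with the most type I collagen reads of each plate, Pcolce spanned 1.80-fold (14.5 to 26.1 per 1000) and Lox 1.64-fold. Then 14 genes (0.131%) stayed within 2-fold. A narrower span than that of Pcolce was found for 0.0655% of genes, against 0.0187% with all cells. For Lox these shares were 0.0374% and 0.0561%. The order of all genes by span was looked at after the ratios of the enzymes had been seen. The ratio in SAG lay within the range of the other tissues for Pcolce (18.1 in SAG, 14.3 to 18.6 in the others) and just below it for Lox (6.999 in SAG against 7.105 in GP), while 65.1% of SAG cells had Col2a1 reads.

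**Figure D3:**
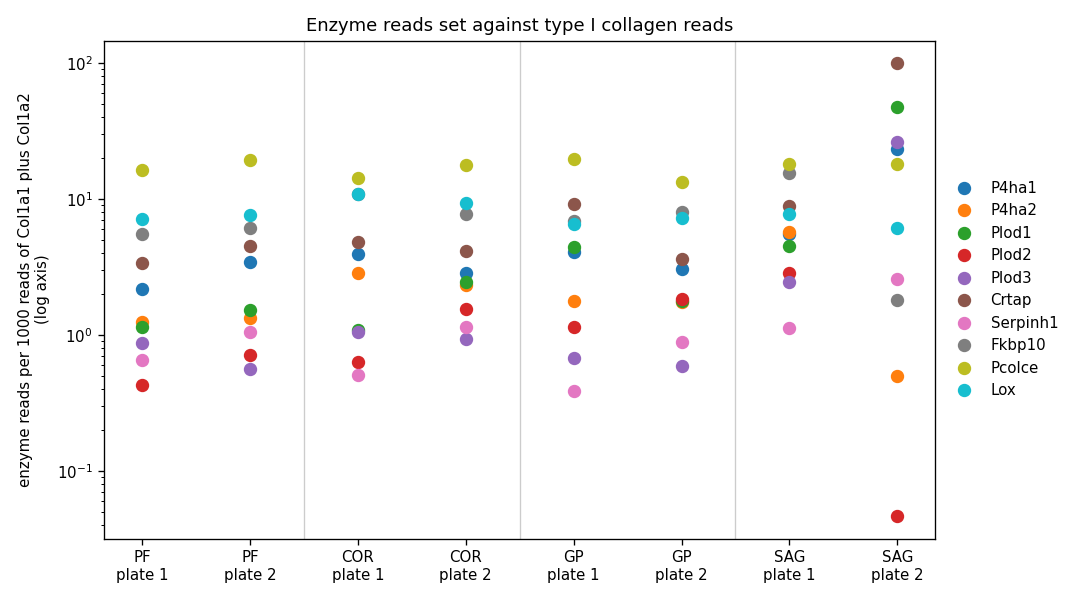
Reads of each enzyme per 1000 reads of Col1a1 plus Col1a2 (vertical log axis) on each of the 8 plates. Pcolce stays between 13.4 and 19.7 and Lox between 6.08 and 10.8, whereas Crtap, Plod1, Plod3 and P4ha1 are highest and Plod2, P4ha2 and Fkbp10 lowest on SAG plate 2.

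The relation was then followed cell by cell, as Spearman's rank correlation (rho) of the CPM of each enzyme with that of Col1a1 in 5 sets of cells, PF, COR, GP and the 2 plates of SAG. It is a description without a p, since the cells of a set share plates and animals, and a rho of at least 0.3 was counted. The genes computed had reads in at least 10 cells and 20% of the cells of a set. They were not matched to the enzymes for level or for the share of cells with a read, whose part was not tested. In PF 6 of the 10 enzymes reached 0.3 with Col1a1, where 4.82% of the 4423 genes that could be computed did. In COR 4 of 10 did, where 1.53% of genes did, and in GP 5 of 10 did, where 6.88% did. On SAG plate 1 5 of 10 did, where 6.65% of genes did, and on SAG plate 2 3 of the 7 that could be computed did, where 4.97% did. The median rho of the enzymes was 0.36 in PF beside 0.07 for all genes, 0.20 in COR beside -0.01, 0.32 in GP beside 0.05, 0.31 on SAG plate 1 beside -0.04, and 0.20 on SAG plate 2 beside -0.01.

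Pcolce was the member most tied to Col1a1 in PF, COR and GP with both plates together. Its rho was 0.61 in PF, 0.55 in COR, 0.63 in GP, 0.34 on SAG plate 1 and 0.49 on SAG plate 2. It was above 99.9%, 99.9% and 99.7% of genes in the first 3 sets. Fkbp10 followed at 0.57, 0.42, 0.55 and 0.58 in PF, COR, GP and SAG plate 1 and had too few reads on SAG plate 2. Crtap was at 0.53, 0.31, 0.52, 0.17 and 0.36 in the 5 sets, and Lox at 0.38, 0.25, 0.52, 0.56 and 0.55. These were the members most often past 0.3, Pcolce and Fkbp10 in every set in which they could be computed and Crtap and Lox in 4 of 5. The first place of Pcolce did not hold on every single plate. On PF plate 1 Pcolce was at 0.31, below Fkbp10 (0.47), Crtap (0.44), Lox (0.37) and P4ha1 (0.37). On GP plate 1 Pcolce was at 0.53 and Lox at 0.60. On each other plate of PF, COR and GP Pcolce was the highest computed.

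The hydroxylases were less even. P4ha1 reached 0.42 in PF, 0.37 in GP and 0.50 on SAG plate 1 but 0.09 in COR and 0.20 on SAG plate 2, and P4ha2 ran from -0.01 in COR to 0.48 on SAG plate 1. None of the 3 lysyl hydroxylases reached 0.3 in any set. Plod1 lay between -0.11 and 0.27, Plod3 between 0.05 and 0.28, and Plod2 between -0.31 on SAG plate 1, the one value at -0.3 or below, and 0.27 in GP. The value of Plod2 on SAG plate 1 was -0.16 after thinning. Serpinh1 lay between 0.10 and 0.34 and passed 0.3 in COR. Holding the number of genes per cell constant left the median at 0.28 in PF, 0.21 in COR, 0.30 in GP, 0.31 on SAG plate 1 and 0.21 on SAG plate 2. After thinning to 100000 reads per cell, over the enzymes that could still be computed, it was 0.37, 0.20, 0.30, 0.32 and 0.21.

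**Figure D4:**
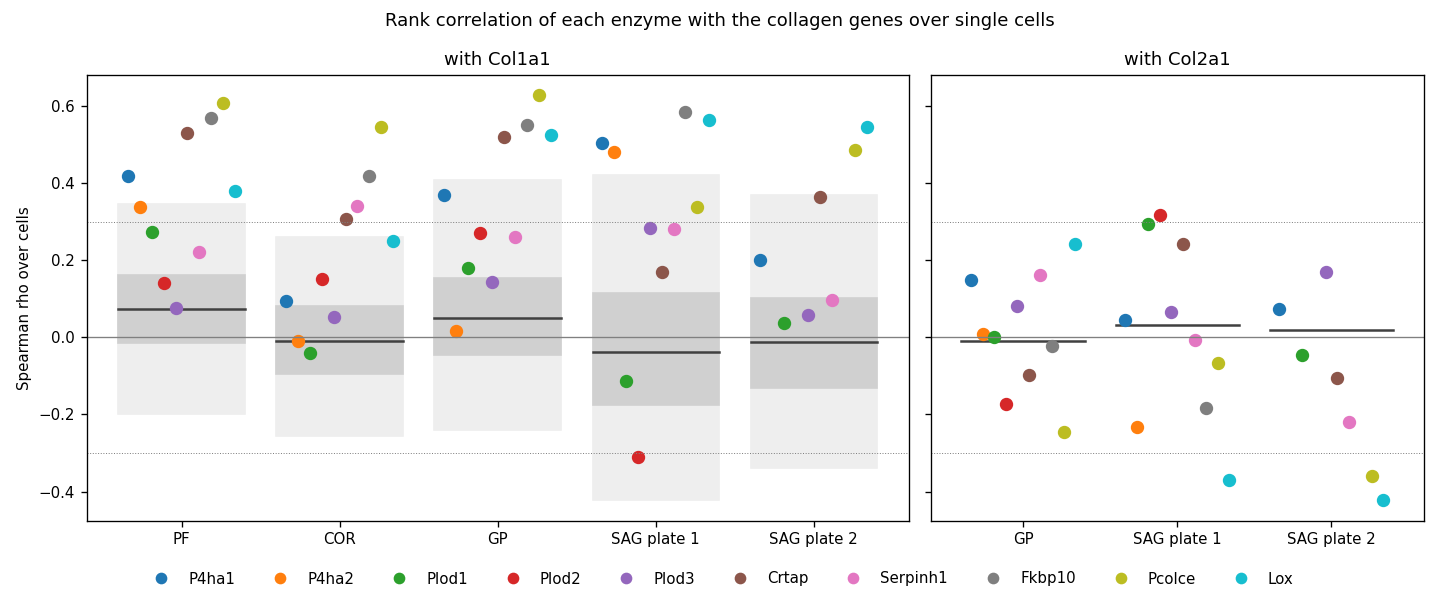
Spearman rho over cells of each enzyme with Col1a1 (left, 5 sets of cells) and with Col2a1 (right, the 3 sets with enough Col2a1 reads); each colour is 1 enzyme, the dark line is the median of all genes that could be computed, dotted lines mark 0.3 and -0.3, and on the left the grey boxes hold the middle 50% and 95% of genes. Pcolce, Fkbp10, Crtap and Lox lie high on the left, and on the right no enzyme stands high in all sets while Lox and Pcolce are lowest on SAG plate 2.

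Part of the relation in SAG lay in whether a cell had any read. In SAG, where 62 of 86 cells had a Col1a1 read, Lox on plate 2 was read in 11 of 37 cells with Col1a1 (29.7%) and in 1 of 19 without (5.26%), and on plate 1 in 10 of 25 with and 0 of 5 without. Pcolce was less bound to detection, in 20 of 37 cells with Col1a1 and 7 of 19 without on plate 2, and in 20 of 25 and 5 of 5 on plate 1. In COR every one of the 74 cells had Col1a1 reads, so there the rho of 0.55 for Pcolce runs over cells that all had the collagen.

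**Figure D5:**
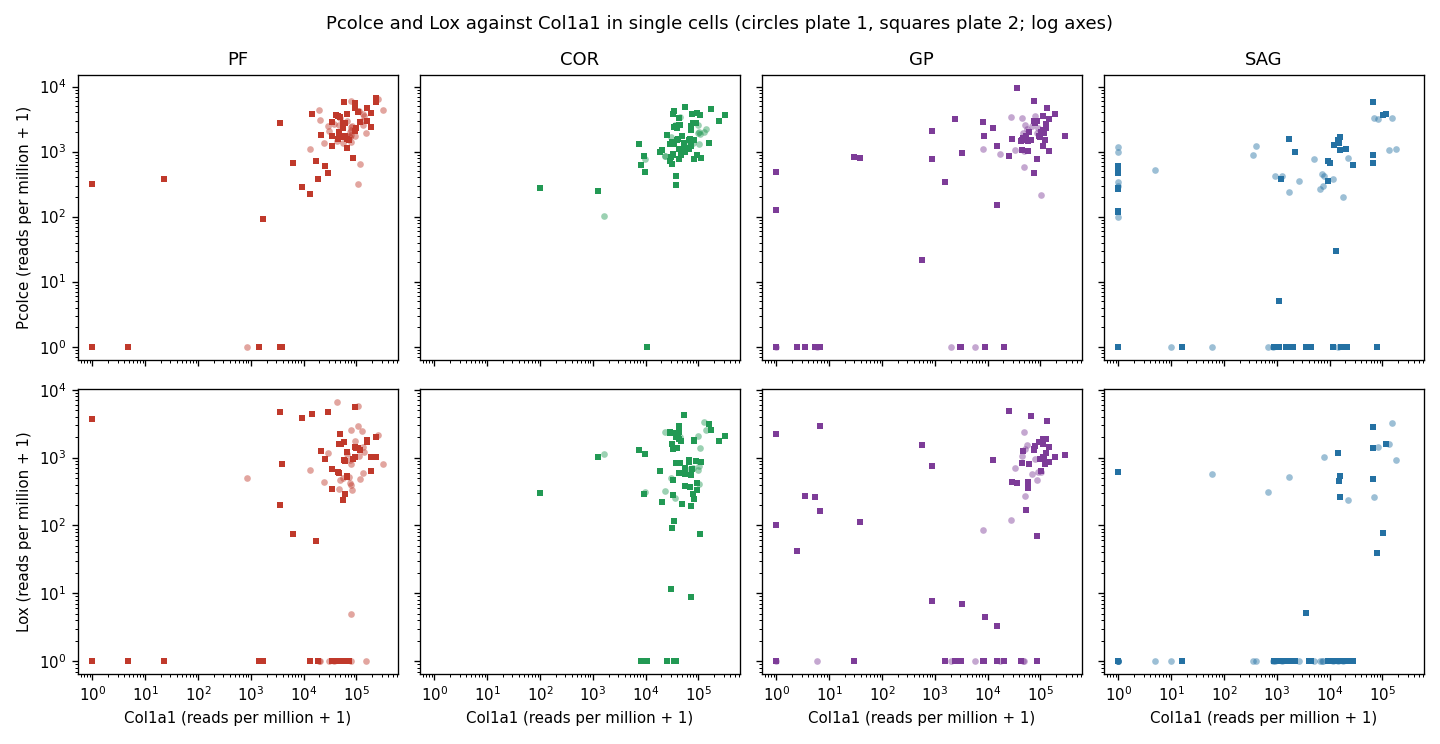
Level of Pcolce (top) and Lox (bottom) against Col1a1 in each passing cell of PF, COR, GP and SAG, both as CPM + 1 on log axes; circles are plate 1 and squares plate 2, and points at 1 on an axis have no read of that gene. The cells rich in Col1a1 are those rich in Pcolce in PF, COR and GP (rho 0.61 in PF, 0.55 in COR and 0.63 in GP), and most SAG cells have no Lox read.

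Type II collagen could be followed only in GP, where 21 of 78 cells had Col2a1 reads, and on the 2 plates of SAG, with 22 of 30 and 34 of 56. PF and COR had 8 and 3 such cells. In GP 0 of the 10 enzymes reached 0.3 with Col2a1, where 0.977% of genes did, and 0 were at -0.3 or below, where 0.774% did. On SAG plate 1 Plod2 reached 0.3 at 0.32 (1 of 10, where 12.3% of genes did) and Lox was at -0.37 (1 of 10 at -0.3 or below, where 6.28% were). After thinning Plod2 was at 0.17 there, short of 0.3, and Lox could not be computed. On SAG plate 2 0 of 7 reached 0.3, where 7.37% of genes did, and Lox at -0.42 and Pcolce at -0.36 were at -0.3 or below (2 of 7, where 3.02% were). The medians of the enzymes were 0.00 in GP, 0.02 on SAG plate 1 and -0.10 on SAG plate 2, beside -0.01, 0.03 and 0.02 for all genes.

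Lox was read less often in SAG cells with Col2a1 reads and more often in GP cells with them. On SAG plate 2 it was read in 2 of 34 cells with Col2a1 (5.88%) and in 10 of 22 without (45.5%), and on SAG plate 1 in 5 of 22 with and 5 of 8 without. In GP it was read in 20 of 21 cells with Col2a1 (95.2%) and 39 of 57 without (68.4%), and its rho was 0.24. Thinned to equal depth, Lox was read in 1 of 33 and 10 of 22 cells on SAG plate 2, in 5 of 18 and 4 of 7 on SAG plate 1, and in 15 of 17 (88.2%) and 36 of 50 (72%) in GP, where the gap was thus smaller and the rho 0.18. Pcolce was read in 12 of 34 cells with Col2a1 and 15 of 22 without on SAG plate 2, and in 14 of 21 and 50 of 57 in GP. On SAG plate 1 the direction was the other, with 19 of 22 and 6 of 8 cells. After thinning Pcolce was read in 11 of 33 and 15 of 22 cells on SAG plate 2. The thinned counts were 13 of 17 and 42 of 50 in GP, a smaller gap, and 15 of 18 and 5 of 7 on SAG plate 1. Plod2 went the other way from Lox on SAG plate 1, in 18 of 22 cells with Col2a1 and 2 of 8 without. After thinning Plod2 was read there in 13 of 18 and 2 of 7 cells. Plod1 was split likewise on that plate, in 20 of 22 and 3 of 8 cells. In GP Plod2 was read in 10 of 21 cells with Col2a1 and 34 of 57 without.

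Among themselves the enzymes were loosely tied. The median rho over the 45 pairs was 0.20 in PF, 0.14 in COR, 0.14 in GP and 0.18 on SAG plate 1, and 0.11 over 21 pairs on SAG plate 2. Crtap with Pcolce was at 0.3 or above in all 5 sets, with 0.41 in PF, 0.44 in COR, 0.43 in GP, 0.34 on SAG plate 1 and 0.49 on SAG plate 2. Crtap with Fkbp10 reached 0.52 in PF, 0.36 in COR, 0.41 in GP and 0.51 on SAG plate 1, all the sets in which it could be computed. How many pairs of genes at large reach 0.3 was not computed. The catalytic subunits P4ha1 and P4ha2 were at 0.34 in PF, 0.35 in COR and 0.33 on SAG plate 1 but -0.06 in GP.

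The genes whose reads over cells were most like the summed reads of the 10 enzymes were ranked by their mean rho over the 5 sets, among 695 genes that could be computed in all. Sparc, a collagen-binding glycoprotein of bone, was first at 0.59, before Rcn3, a calcium-binding protein of the endoplasmic reticulum, at 0.58, Col1a1 at 0.56 and Col1a2 at 0.56. Serpinf1 (0.45), P4hb (0.43), Vkorc1 (0.43), Surf4 (0.42), Ckap4 (0.41) and Lepre1 (0.41) completed the 10, beside a median of 0.05. The means hide a spread, since on SAG plate 2 Serpinf1 was at 0.02 and Lepre1 at 0.07. The sum was led by Crtap on SAG plate 2 and by Pcolce elsewhere, so its make-up differed between sets. P4hb is the common subunit of the prolyl 4-hydroxylases and Lepre1 the enzyme that Crtap serves.

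Of 26 other genes of collagen assembly found in the tables, 22 to 25 reached 10 CPM in each pair of tissues. Past the rule were 0 higher and 2 lower in PF against COR, 0 and 2 in COR against GP, and 1 and 5 in PF against GP. In the pairs with SAG the counts were 8 and 5 for PF over SAG, 8 and 4 for COR over SAG, and 3 and 9 for SAG over GP, where 16.9% and 13.2%, 18.9% and 13.5%, and 13.3% and 18.3% of all genes were called. Among PF, COR and GP these shares of all genes were 5.43% and 6.36%, 6.33% and 7.09%, and 7.67% and 8.73%. With SAG plate 2 left out, tried after seeing the data and again with fewer plate ratios per pair, the counts were 5 and 6, 6 and 4, and 1 and 5. The genes higher than in SAG in both PF and COR were the prolyl 3-hydroxylase family members Leprel2 and Leprel4, the isomerase Fkbp14, the glycosyltransferase Glt25d1, the factor Creb3l1, which drives secretory genes in osteoblasts, and the N-propeptidases Adamts2 and Adamts14. Without SAG plate 2 Fkbp14, Creb3l1, Adamts2 and Adamts14 still met the rule in both pairs, Leprel2 in PF alone, and Leprel4 and Glt25d1 in neither. Adamts2, which trims the type I chain, was at 511 CPM in PF, 313 in COR, 209 in GP, with 43.2 in SAG (97.3 and 7.16 on its plates). Adamts3, which trims the type II chain, was the reverse, at 33.4, 46.4, 33.5 and 241 CPM (74.5 and 352 on the SAG plates), and was lower in PF and COR than in SAG and higher in SAG than in GP, though without SAG plate 2 not in the pair with COR.

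Lepre1 was at 848 CPM in PF, 619 in COR, 766 in GP, with 342 in SAG and met the rule in PF over SAG and SAG over GP, in neither without SAG plate 2. Its relative Leprel1 (P3h2), which acts on cartilage and basement membrane collagens, ran the opposite way at 0.69, 8.99, 18.97 and 51.5 CPM, and was lower in PF than in GP or SAG and higher in SAG than in GP, the last not without SAG plate 2, although 28.4% of its exon bases also lie in Gm4524. Tmem38b, a cation channel gene of the endoplasmic reticulum, was at 2.08 CPM in PF, 13.6 in COR and 18.5 in GP and had 0 reads in SAG, which allows up to 0.174 CPM. It was lower in PF than in COR and GP, and COR and GP were higher than SAG. The crosslinking enzymes related to Lox did not share its pattern. Loxl2 was at 42.6 CPM in PF, 118 in COR, 149 in GP, with 140 in SAG and lower in PF than in every other tissue, Loxl3 at 63.3, 60.3, 132 and 129 CPM was lower in PF and COR than in GP and lower in PF than in SAG, and Loxl4 at 8.80 CPM in COR and 70.3 in SAG was lower in COR. Pcolce2, the relative of Pcolce, was at 15.3 CPM in PF, 5.46 in COR, 83.2 in GP, with 27.2 in SAG and lower in PF and COR than in GP. Colgalt2 had reads in GP (2.77 CPM) and SAG (27.8 CPM) and 0 in PF and COR, and was higher in SAG than in each, but fell below the minimum of 10 CPM without SAG plate 2, and Tll1 was lower in COR than in SAG at 5.71 against 13.7 CPM. With Col1a1 over cells, 8 of 17 of these genes reached 0.3 in PF, 6 of 19 in COR, 12 of 17 in GP, 6 of 15 on SAG plate 1 and 3 of 10 on SAG plate 2, where 4.82%, 1.53%, 6.88%, 6.65% and 4.97% of all genes did.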

How the data were processed

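Single cells had been sorted into plates and their RNA amplified with an oligo-dT SMART-seq2 protocol. The deposited values are whole-number counts of reads per gene in each cell, which the authors made by aligning to mm9; the submitters' processing notes name STAR 2.5.3a, HTSeq, Seurat 2.3.0 and R 3.4.4. The protocol had no molecular identifiers and marks no strand. The 8 count tables, 2 plates for each of 4 tissues, hold 360 cells and 24015 genes, and no column was left without a cell. Cells with at least 500 genes and 10000 reads were kept (325 of 360). One cell labelled SAG has a description that names a PF plate, and it was kept as SAG. In 1 passing cell both Xist and Y-linked genes were read. No doublets were called.

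Reads were summed over cells by plate and by tissue and divided by the total without Rn45s, as CPM, and per kilobase of merged exons of the NCBIM37 annotation. Ratios were taken as log2 of CPM + 1, over genes with at least 10 CPM in 1 of the tissues. With 1 sample per tissue no test was made and no p is given. Shares of cells carry exact Clopper-Pearson intervals (95%), and a count of 0 a limit of 3 reads. Spearman's rho was computed for genes read in at least 10 cells and 20% of the cells of a set, and repeated on cells thinned to 100000 reads and given the number of genes per cell. Total median depth per tissue ran from 184673 to 448803 reads without Rn45s per cell. Python 3.11.15, numpy 2.4.6, scipy 1.17.1, pandas 2.3.3, matplotlib 3.10.9, and edgeR 4.0.16 in R 4.3.3 for TMM factors were used, and the scripts were tested on simulated data.

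The genes named are the 10 enzymes, Col1a1, Col1a2 and Col2a1, those of 26 other collagen assembly genes past the rule, and the 10 genes most like the summed enzymes. Members, lists and rules were chosen with earlier results of these data known. Alternatives covered the total, pseudocount, filters, weight of cells, plates, single cells of high count or doubtful identity, and depth. Promoter windows came from RefSeq on GRCm38.p6, another build than that of the files, and share no coordinates with the gene positions, which are mm9.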

Additional observations from a re-analysis of the deposited data

How the results depend on the processing

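Of the summary values under all alternatives, 143 were counted as unchanged and 26 as moved, and of the single values 1209 and 126. A value counted as unchanged need not lie close to the reported one. For Fkbp10 the ratio of COR over SAG, reported as 1.31 with widely spread plate ratios, counted as unchanged at 0.12 without SAG plate 2. It also did so at 3.20 with Rn45s in the totals. None of the called ratios changed sign. Counting Rn45s in the totals took the log2 ratio of the summed enzymes to 2.16 for PF over SAG, 1.959 for COR over SAG and -1.71 for SAG over GP, where all genes had medians of 1.99, 2.00 and -1.86, and left 0 enzymes past the rule in the pairs among PF, COR and GP. The reported ratios are 0.27, 0.06 and 0.11. The stricter filter on cells (1500 genes and 50000 reads) gave 0.82, 0.60 and -0.47 and 5 enzymes past the rule over the pairs with SAG in place of 10. It leaves no cell of SAG plate 2, so rho has no value there. Leaving out SAG plate 2 gave 0.74, 0.53 and -0.37 and 4 enzymes.

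Leaving out 1 plate at a time gave 4 to 24 enzymes past the rule over the pairs with SAG (24 without SAG plate 1) and 1 to 3 over the other pairs (3 without COR plate 2 or GP plate 2, 2 without PF plate 2). A pair that lacks a plate has fewer plate ratios than the rule's 4, so the condition of one sign is easier to meet. The summed ratio then ran from 0.0216 to 0.74 for PF over SAG, -0.18 to 0.53 for COR over SAG, -0.37 to 0.35 for SAG over GP, 0.00149 to 0.38 for PF over COR, 0.32 to 0.54 for PF over GP and 0.11 to 0.37 for COR over GP. On single plates the median rho with Col1a1 was 0.30 to 0.36 in PF, 0.15 to 0.34 in COR and 0.26 to 0.37 in GP. Given the number of genes per cell it was 0.28 in PF in place of 0.36. The count of enzymes within 2-fold per type I collagen read was 2 without SAG plate 2 and without the richest collagen cell of each plate, both tried after seeing the data. No paired analysis was possible because the comparisons come from no test and plate numbers do not pair the tissues. Each tissue is 1 pool of animals, so differences between tissues and between pools cannot be told apart.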
